A study of Mus musculus with 2 samples.

Results

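Immediate early genes are switched on within minutes of a growth factor, cytokine or stress signal and need no new protein synthesis for it. Several of them encode AP-1, a family of basic leucine zipper (bZIP) transcription factors. Fos family proteins bind DNA as partners of Jun family proteins, whereas Jun proteins can also pair with each other. The set described here holds 10 mouse genes: the Fos family (Fos, Fosb, Fosl1, Fosl2), the Jun family (Jun, Junb, Jund), the stress-induced bZIP factor Atf3, the zinc finger factor Egr1 and Ier2. They were taken by name, as all transcript lines whose RefSeq accession maps to these symbols, which gave 10 of 30794 transcript lines and 10 of 23123 gene symbols, 1 line a gene.

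The RNA is that of mTEC, the epithelial cells of the medulla of the thymus, which present tissue antigens to developing T cells. The mTEChi group is MHC class II high mTEC and the mTEClo group is MHC class II low mTEC. Both were sorted by flow cytometry out of WT B6 thymi, which were pooled, and the labels name no treatment, with 1 library of poly(A) RNA per group. Reads were paired and 100 bases long for mTEChi but single and 50 bases long for mTEClo, so read type and group cannot be told apart. With 1 library a group there is no replicate spread and no test, and every value below describes these libraries.

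Values are RPKM, reads scaled by transcript length and by the depth of the library, as the authors deposited them. The change of a gene is log2((mTEChi + 1)/(mTEClo x 1.21 + 1)), where 1.21 (0.27 on the log2 scale) sets the median log2 ratio of 5167 well-expressed genes to 0. A 2-fold difference, which is 1 in log2 units, serves as a mark of size. Depth recovered from the steps of the low values was about 114858000 reads for the mTEChi and 20923900 for the mTEClo library. The labels were checked against markers. The mature mTEC genes Aire (122 RPKM in mTEChi against 15.9 RPKM in mTEClo) and H2-Aa (4908 RPKM in mTEChi against 1524 RPKM in mTEClo) were higher in the mTEChi library, and basal Krt5 was present in both (448 RPKM in mTEChi against 770.4 RPKM in mTEClo).

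The immediate early genes that dominate the set were lower in the mTEChi library. Of the 10 genes, 9 were lower and 5 were at least 2-fold lower: Jun, Fos, Atf3, Egr1 and Fosb. None was 2-fold higher. The background is 15590 genes whose mean reached 0.5 RPKM, of which 9.35% were 2-fold lower or beyond and 16.1% 2-fold higher or beyond. The median change of the 10 genes was -1.01, beside 0.03 for all these genes. In bulk RNA, fewer cells of a type and less RNA per cell cannot be told apart. The counts depend on the scaling between the libraries. Without scaling, 3 of the 10 genes were 2-fold lower (Jun, Fos and Atf3), beside 6.48% of all genes lower and 19.4% higher, and the medians were -0.74 for the 10 genes and 0.25 for all genes. With the same upper quartile of genes above 0 in each library, Jun and Fos were the 2 genes past the mark, beside 5.38% of all genes lower (80.4% of all genes past 2-fold were then higher, beside 63.3% with the factor of 1.21), and the medians were -0.58 for the 10 genes and 0.37 for all genes.

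Most of the set lies among the abundant transcripts. Of the 10 genes, 8 reached a mean of 100 RPKM, and the 5 that were 2-fold lower are among them. Of all 486 genes at that level, 21.4% were 2-fold lower and 13% 2-fold higher, with a median of -0.14. Together the 10 genes held 0.537% of the RPKM sum of the mTEChi library and 1.18% of that of the mTEClo library.

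**Figure D1:**
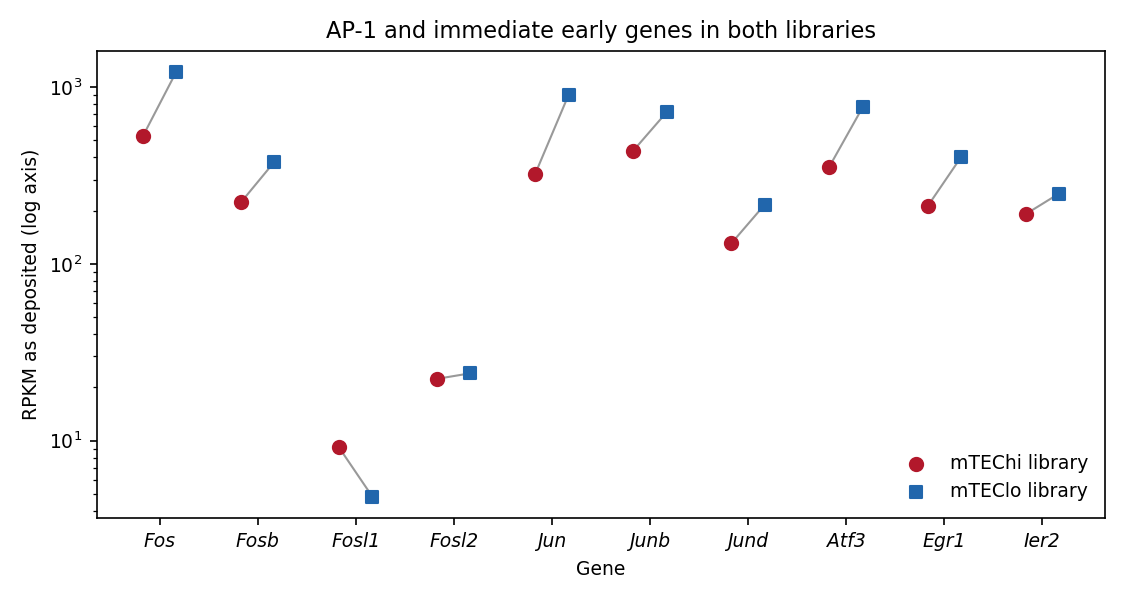
RPKM as deposited (log axis) of the 10 genes, with the mTEChi library as circles and the mTEClo library as squares, 1 library each. Fosl1 is the gene with the higher value in the mTEChi library (9.16 RPKM in mTEChi against 4.83 RPKM in mTEClo), and the gap is widest for Jun (323 RPKM in mTEChi against 901 RPKM in mTEClo).

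Promoter sequence is shown for the 5 genes Fos, Fosb, Jun, Junb and Atf3, whose levels in the mTEChi library were lower by close to 2-fold or more. The same holds for Jund (1.99-fold lower) and Egr1 (2.28-fold lower), which are not shown. The Jund window held no match to the motifs below, and Egr1 had no window. Each line holds the 150 bases that end just before the annotated start, 5′ to 3′ on the gene's strand, from RefSeq (GRCm38.p6, a later build than the authors' mm9). The lines come from chr12:85473740-85473889 (Fos, plus strand), chr7:19310046-19310195 (Fosb, minus), chr4:95052223-95052372 (Jun, minus), chr8:84978749-84978898 (Junb, minus) and chr1:191183334-191183483 (Atf3, minus). Capitals mark matches to the motifs that are spelled out after the lines.
Fos: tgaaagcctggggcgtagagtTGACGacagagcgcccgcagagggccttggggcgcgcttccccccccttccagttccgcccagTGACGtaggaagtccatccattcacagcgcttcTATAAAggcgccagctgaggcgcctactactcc
Fosb: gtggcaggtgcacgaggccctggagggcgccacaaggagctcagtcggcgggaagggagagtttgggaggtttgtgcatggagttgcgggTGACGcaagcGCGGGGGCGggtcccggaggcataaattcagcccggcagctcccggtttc
Jun: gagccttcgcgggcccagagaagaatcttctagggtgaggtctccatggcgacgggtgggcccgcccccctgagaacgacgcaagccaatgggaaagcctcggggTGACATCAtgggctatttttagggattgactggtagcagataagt
Junb: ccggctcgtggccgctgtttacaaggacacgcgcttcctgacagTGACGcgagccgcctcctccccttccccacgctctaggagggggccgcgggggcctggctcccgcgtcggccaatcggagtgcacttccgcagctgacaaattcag
Atf3: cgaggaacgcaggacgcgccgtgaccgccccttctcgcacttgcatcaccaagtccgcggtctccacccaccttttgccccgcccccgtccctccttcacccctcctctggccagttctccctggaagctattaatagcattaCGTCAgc

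The search covered both strands of the 300 bases from 250 before to 50 after the start, and 7 of the 10 genes had such a window: Fos, Fosb, Fosl2, Jun, Junb, Jund and Atf3. TGACG, the core of the site bound by CREB and ATF factors, was in 4 of the 7 windows (Fos, Fosb, Junb and Atf3) and in 21.02% of 27025 windows of the genome. Fos held it at both 129 and 66 bases before the start, and in Atf3 it lies on the opposite strand and reads as its reverse complement in the line. TGACATCA, a variant AP-1 and ATF site, was in the Jun window and in 3.76% of all windows. TATAAA was in the Fos and Junb windows and in 14.2% of all, with the Junb match at the annotated start and outside the line shown. GCGGGGGCG, a sequence bound by Egr1, was in the Fosb and Fosl2 windows and in 2.92% of all. The AP-1 site TGANTCA (7.93% of all windows) and the CArG box bound by serum response factor (1.57%) had no match in the 7 windows, which says nothing of sequence farther away. No matches of different motifs overlapped.

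Fos, the founding AP-1 partner, had the highest level of the set in both libraries, at 527 RPKM in the mTEChi and 1217 RPKM in the mTEClo library. It ranked 54 among all genes in the mTEChi and 30 in the mTEClo library. Its change was -1.48 (2.79-fold lower), or 2.31-fold lower in the values as deposited. Fosb, a close relative that is likewise induced by stimulation, had 223 RPKM in mTEChi against 377 RPKM in mTEClo, a change of -1.03. It lay just past 2-fold and was inside it in 5 of the 13 other settings tried.

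The Fos-related antigens were far less abundant than Fos. Fosl2 (Fra-2), which lacks the strong activation domain of Fos, had 22.4 RPKM in the mTEChi and 24.1 RPKM in the mTEClo library, a change of -0.36. That change was 0.056 in the setting with the same upper quartile of genes above 0, so its direction depends on the scaling. Fosl1 (Fra-1), also without that domain, was the least abundant gene of the set, with 9.16 RPKM in mTEChi against 4.83 RPKM in mTEClo and a change of 0.57. It was higher in the mTEChi library in every setting tried, between 0.39 and 0.94, and never 2-fold. Its mTEClo value rests on about 188 reads, which gave a 95% counting interval of 0.44 to 0.88 for the ratio without pseudocount. In GENCODE, 62.4% of the Fosl1 transcript overlaps Ccdc85b on the opposite strand, which these libraries cannot tell apart, and Ccdc85b was listed at 6.17 RPKM in mTEChi against 6.68 RPKM in mTEClo.

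Jun, which can bind DNA without a Fos partner, had the largest change of the set. It stood at 323 RPKM in the mTEChi and 901 RPKM in the mTEClo library, a change of -1.75 (3.37-fold lower). It ranked 120 in the mTEChi and 38 in the mTEClo library. Junb, which acts in many settings as a weaker activator than Jun, had 437 RPKM in mTEChi against 721 RPKM in mTEClo and was 1.99-fold lower. Jund, the Jun gene known for steady expression in many unstimulated cells, had 131 RPKM in mTEChi against 216 RPKM in mTEClo and was also 1.99-fold lower. Both lie at the mark itself. Junb passed it in 1 of the 13 other settings (-1.02 with transcript length centring) and Jund in 2 of them (a pseudocount of 0.1 RPKM, and -1.05 with that centring). Part of the Jund transcript (52.6%) is overlapped on the opposite strand by Gm11175 and a smaller part of Jun (7.28%) by Junos, and no value was matched to either of these.

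Atf3, which forms dimers with Jun proteins and is induced by many stresses, had 355 RPKM in mTEChi against 771 RPKM in mTEClo, a change of -1.39 (2.62-fold lower). Egr1, which binds GC-rich promoter sites, had 211 RPKM in mTEChi against 400.03 RPKM in mTEClo, a change of -1.19. It was inside 2-fold without scaling (-0.92). Ier2, a nuclear protein named for its immediate early induction, had 191 RPKM in mTEChi against 249.7 RPKM in mTEClo and a change of -0.66, the smallest difference among the 8 abundant genes.

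**Figure D2:**
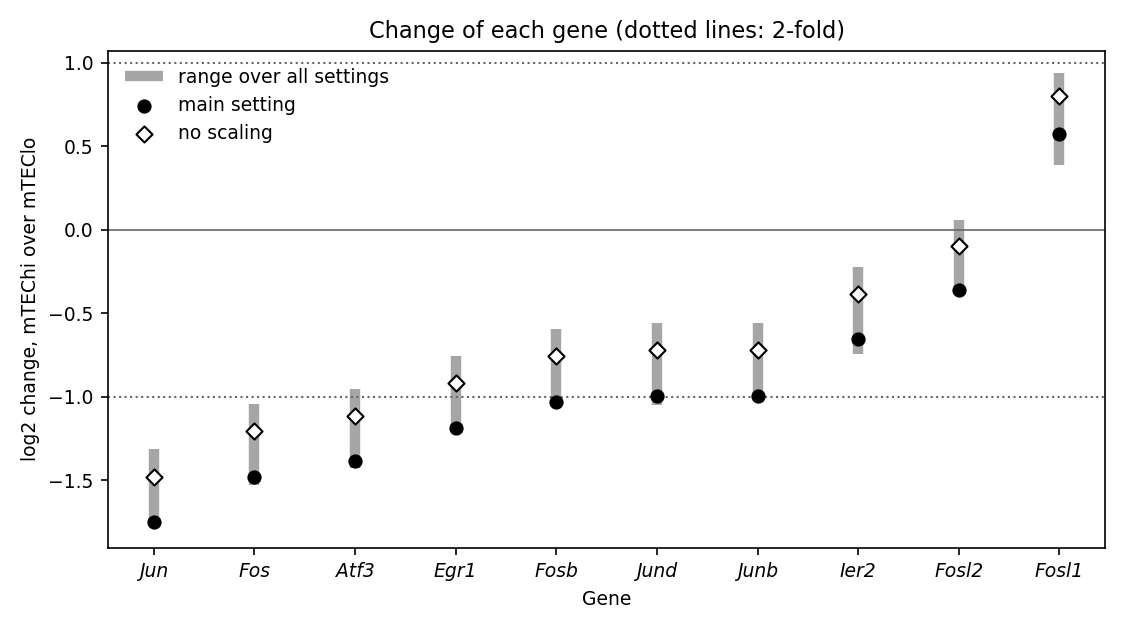
Change of each gene (log2, mTEChi over mTEClo) in the main setting (black circles) and without scaling (open diamonds), with grey bars for the range over all settings and dotted lines at 2-fold. Jun and Fos lie below -1 over the whole range (-1.77 to -1.32 and -1.53 to -1.04), and Fosl1 lies above 0 throughout.

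The 10 genes had about 1961 to 127566 reads in the mTEChi and 188 to 60136 reads in the mTEClo library, and their 95% counting intervals were 0.03 to 0.44 wide on the log2 scale. These cover counting error only, not the spread between sorts or animals. Read length differs between the libraries, so transcript structure is given as well. Jun, Junb, Jund and Ier2 have 1 exon. The 566 genes of 1 exon had a median change of -0.02, with 13.6% of them 2-fold lower, against 0.03 and 9.13% for the 14851 genes with more exons. After centring within bins of exon length, 4 of the 10 genes were 2-fold lower, and after centring within bins of GC content 5 were.

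Ratios between the genes within a library do not depend on the scaling between libraries. The Fos family summed to 781 RPKM in the mTEChi and 1623 RPKM in the mTEClo library, and the Jun family to 889.9 RPKM in mTEChi against 1838 RPKM in mTEClo. The ratio of the families was therefore close in both, at 0.878 in the mTEChi and 0.883 in the mTEClo library. The composition within each family differed more. Jun was 36.3% of the Jun family in the mTEChi and 49.0% in the mTEClo library, and Junb was 49.1% in mTEChi against 39.2% in mTEClo. Junb was thus the leading Jun gene in the mTEChi library and Jun in the mTEClo library, with a ratio of Jun to Junb of 0.739 in mTEChi against 1.25 in mTEClo. Jund was 14.7% in mTEChi against 11.8% in mTEClo.

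In the Fos family, Fos was 67.4% in the mTEChi and 74.99% in the mTEClo library and Fosb was 28.5% in mTEChi against 23.2% in mTEClo. Fosl2 was 2.87% in mTEChi against 1.48% in mTEClo and Fosl1 1.17% in mTEChi against 0.297% in mTEClo. The ratio of Fos to Fosl2 was 23.5 in the mTEChi and 50.6 in the mTEClo library, and that of Fos to Fosl1 was 57.5 in mTEChi against 252 in mTEClo. The ratio of Egr1 to Fos moved less, at 0.401 in mTEChi against 0.329 in mTEClo, as did that of Fos to Jun, at 1.63 in mTEChi against 1.35 in mTEClo.

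**Figure D3:**
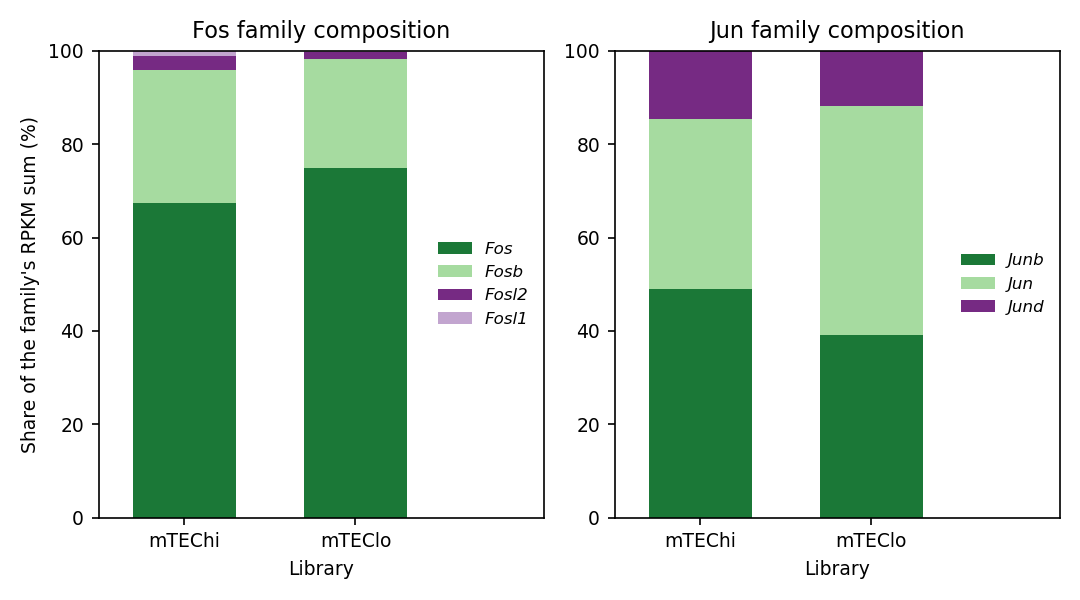
Share of each gene in the RPKM sum of its family (%), with the mTEChi library on the left and the mTEClo library on the right of each panel. Junb (49.1% in mTEChi against 39.2% in mTEClo) and Jun (36.3% in mTEChi against 49.0% in mTEClo) differ in order, and Fos is the largest part of the Fos family in both libraries.

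Other immediate early genes showed both directions. Of 52 on the list, 15 were at least 2-fold lower in the mTEChi library (28.8%, beside 9.35% of all genes) and 6 at least 2-fold higher (11.5%, beside 16.1%). The counts were nearer to each other under other scalings, but the shares of all genes moved as well. Without scaling, 12 were lower and 10 higher, beside 6.48% of all genes lower and 19.4% higher. With the same upper quartile of genes above 0, 11 were lower and 10 higher, beside 5.38% of all genes lower. Of all genes past 2-fold, 80.4% were then higher. The median of the 52 genes was -0.40, beside 0.03 for all genes. It was -0.14 without scaling, beside 0.25 for all genes, and 0.016 with that upper quartile, beside 0.37. The 3 lowest were the matricellular genes Ccn2 (2.23 RPKM in mTEChi against 35.7 RPKM in mTEClo, -3.77) and Ccn1 (46.4 RPKM in mTEChi against 319 RPKM in mTEClo, -3.03) and the mRNA decay factor Zfp36l1 (20.1 RPKM in mTEChi against 79.3 RPKM in mTEClo, -2.20). The 3 highest were Ptgs2, the inducible prostaglandin synthase (133.96 RPKM in mTEChi against 19.1 RPKM in mTEClo, 2.49), Arc, known from neurons (49.03 RPKM in mTEChi against 15.5 RPKM in mTEClo, 1.34), and Egr4, a relative of Egr1 that was near the filter (1.71 RPKM in mTEChi against 0.205 RPKM in mTEClo, 1.12).

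Of 26 other bZIP genes kept, none was 2-fold lower, beside 9.35% of all genes, and 2 were 2-fold higher (7.69%, beside 16.1%). These were Nrl (6.55 RPKM in mTEChi against 0.647 RPKM in mTEClo) and Batf2 (3.71 RPKM in mTEChi against 0.873 RPKM in mTEClo). The median of the 26 genes was -0.12, beside 0.03 for all genes, and 0.11 without scaling, beside 0.25 for all genes. Alternative partners of Jun had small changes: Batf had 10.06 RPKM in mTEChi against 8.89 RPKM in mTEClo (-0.09), Batf3 9.23 RPKM in mTEChi against 6.72 RPKM in mTEClo (0.17), and Jdp2, a repressor of AP-1, 9.68 RPKM in mTEChi against 10.7 RPKM in mTEClo (-0.39). Maff had 36.99 RPKM in mTEChi against 30.3 RPKM in mTEClo (0.01), Atf2 6.89 RPKM in mTEChi against 5.63 RPKM in mTEClo (0.02) and Creb1 3.86 RPKM in mTEChi against 4.08 RPKM in mTEClo (-0.29).

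Serum response factor and its cofactors switch on Fos and Egr1 after stimulation, and the NAB proteins repress Egr1 activity. Of the 8 kept genes of this list, 1 was 2-fold lower (12.5%, beside 9.35% of all genes) and none 2-fold higher. It was Nab2, with 6.26 RPKM in mTEChi against 14.8 RPKM in mTEClo (-1.38), which was inside 2-fold with the same upper quartile of genes above 0 (-0.97). The median of the list was -0.47, -0.23 without scaling and -0.089 with that upper quartile. The medians of all genes were 0.03, 0.25 and 0.37 in these settings. Srf had 21.7 RPKM in mTEChi against 30.02 RPKM in mTEClo (-0.72). The ternary complex factors Elk1 (2.78 RPKM in mTEChi against 3.18 RPKM in mTEClo, -0.36), Elk3 (5.86 RPKM in mTEChi against 7.36 RPKM in mTEClo, -0.53) and Elk4 (3.12 RPKM in mTEChi against 2.03 RPKM in mTEClo, 0.25) were all low in level. The actin-regulated coactivators Mrtfa (5.11 RPKM in mTEChi against 5.89 RPKM in mTEClo, -0.41) and Mrtfb (2.61 RPKM in mTEChi against 4.44 RPKM in mTEClo, -0.82) and the corepressor Nab1 (5.70 RPKM in mTEChi against 5.13 RPKM in mTEClo, -0.10) were inside 2-fold. Myocd, a muscle cofactor, was listed at 0.0919 RPKM in the mTEChi library and at 0 in the mTEClo library.

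The MAP kinase list, which holds kinases that activate AP-1 proteins and ligases that degrade Jun, had 2 of 28 kept genes 2-fold lower (7.14%) and 3 at least 2-fold higher (10.7%). These shares are near or under those of all genes (9.35% lower and 16.1% higher). The median was 0.09, beside 0.03 for all genes. It was 0.35 without scaling, beside 0.25 for all genes, and 0.48 with the same upper quartile of genes above 0, beside 0.37. The lower ones were the p38 family kinases Mapk12 (1.77 RPKM in mTEChi against 6.99 RPKM in mTEClo, -1.77) and Mapk13 (40.3 RPKM in mTEChi against 103 RPKM in mTEClo, -1.60). The higher ones were Map2k6, which activates p38 (8.58 RPKM in mTEChi against 0.626 RPKM in mTEClo, 2.45), the kinase Rps6ka3 (5.59 RPKM in mTEChi against 1.51 RPKM in mTEClo, 1.22) and the ubiquitin ligase Cop1 (8.63 RPKM in mTEChi against 2.69 RPKM in mTEClo, 1.18). Genes reported as AP-1 targets went both ways, with 6 of 23 kept genes 2-fold lower (26.1%) and 7 at least 2-fold higher (30.4%). The lower count was 4 without scaling and 3 with that upper quartile, and the higher count was 7 in both. Their median of 0.11 turned to -0.15 with the filter raised to 5 RPKM. Il6 (2.82 RPKM in mTEChi against 55.9 RPKM in mTEClo, -4.17), Dcn (19.5 RPKM in mTEChi against 276 RPKM in mTEClo, -4.03) and the matrix protease Mmp3 (0.581 RPKM in mTEChi against 16.4 RPKM in mTEClo, -3.72) were lowest. S100a8 (237 RPKM in mTEChi against 15.4 RPKM in mTEClo, 3.60) and S100a9 (146 RPKM in mTEChi against 24.5 RPKM in mTEClo, 2.26), which encode calprotectin, and the EGF receptor ligand Areg (17.1 RPKM in mTEChi against 0.758 RPKM in mTEClo, 3.24) were highest.

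Of 12 heat shock genes, 6 were at least 2-fold lower in the mTEChi library, beside 9.35% of all genes, and none was 2-fold higher. Most of the 12 reached a mean of 100 RPKM, and of all genes at that level 21.4% were 2-fold lower. All 12 had a change below 0, but only 9 of them did when unscaled, and 7 when set to the same upper quartile of genes above 0. Their summed level was 4029.9 RPKM in the mTEChi and 6849 RPKM in the mTEClo library. The median change of the 12 genes was -0.89, beside 0.03 for all genes, and -0.62 when unscaled, beside 0.25 for all genes. With that upper quartile, 4 were 2-fold lower, beside 5.38% of all genes. The median was then -0.46, beside 0.37 for all genes. Hsp90aa1 had 120.4 RPKM in mTEChi against 304 RPKM in mTEClo (-1.60) and Hspa1b 644 RPKM in mTEChi against 1575 RPKM in mTEClo (-1.56). Its near-identical copy Hspa1a, which can share its reads, had 649 RPKM in mTEChi against 1586 RPKM in mTEClo (-1.56). The part of this shift in the changes of the AP-1 genes was not tested.

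Most markers of stromal cells were lower in the mTEChi library as well. Of 12 fibroblast markers, 11 were 2-fold lower (all but Pdgfrb, with 4.03 RPKM in mTEChi against 3.98 RPKM in mTEClo), with a median of -3.98 and a summed level of 98.03 RPKM in mTEChi against 1366 RPKM in mTEClo. All 12 endothelial markers were 2-fold lower, with a median of -3.03 and 33.2 RPKM in mTEChi against 308 RPKM in mTEClo. Of all genes, 9.35% were 2-fold lower. Without scaling, 10 fibroblast and 11 endothelial markers were 2-fold lower, and the same counts held with the same upper quartile of genes above 0. Postn had 3.48 RPKM in mTEChi against 201.7 RPKM in mTEClo (-5.77) and Pecam1 4.79 RPKM in mTEChi against 59.2 RPKM in mTEClo (-3.65). No marker of either list was at 0 in either library. Dcn is on the fibroblast list as well as among the AP-1 targets. Of 10 immature mTEC markers, 6 were at least 2-fold lower and 1 at least 2-fold higher, with a sum of 1749.85 RPKM in mTEChi against 6000.49 RPKM in mTEClo, led by the chemokine gene Ccl21a with 354 RPKM in mTEChi against 3238 RPKM in mTEClo (-3.46). Without scaling, 4 were 2-fold lower, and the median of -1.14 was -0.87.

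Other marker lists moved the opposite way or showed no common direction. Of all genes, 16.1% were at least 2-fold higher and 9.35% at least 2-fold lower. All 12 mature mTEC genes were higher in the mTEChi library, 11 of them at least 2-fold (median 1.47, sum 17663 RPKM in mTEChi against 5601 RPKM in mTEClo), and Cd86 was listed at 0 in the mTEClo library. Macrophage and dendritic cell markers had 9 of 11 kept genes at least 2-fold higher and none 2-fold lower (median 1.61, sum 566 RPKM in mTEChi against 146 RPKM in mTEClo), with Flt3, Siglech and Xcr1 at 0 in the mTEClo library. Lyz2 made up most of that sum (493 RPKM in mTEChi against 133 RPKM in mTEClo). B cell markers had 4 of 6 kept genes at least 2-fold higher and none lower (median 1.24, sum 56.1 RPKM in mTEChi against 17.8 RPKM in mTEClo), with Cd79a, Ms4a1 and Pax5 at 0 in the mTEClo library. Thymocyte markers had 2 of 13 kept genes at least 2-fold higher (15.4%) and 1 at least 2-fold lower (7.69%), near the shares of all genes. Their sum was 48.6 RPKM in mTEChi against 41.95 RPKM in mTEClo, with Rag2 at 0 in the mTEClo library. Thy1, which is also on the fibroblast list, was the gene 2-fold lower, at -1.06, or -0.80 without scaling. The median of the thymocyte list, 0.10, was -0.44 with the filter raised to 5 RPKM. That filter left Thy1, Lck and Tcf7, so -0.44 is the value of Lck. The mTEClo library was less deep, with 8637 transcript lines at 0 against 2815 in the mTEChi library, so a 0 there need not mean absence. The part of the cell types of these lists in the levels of the AP-1 genes was not tested.

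**Figure D4:**
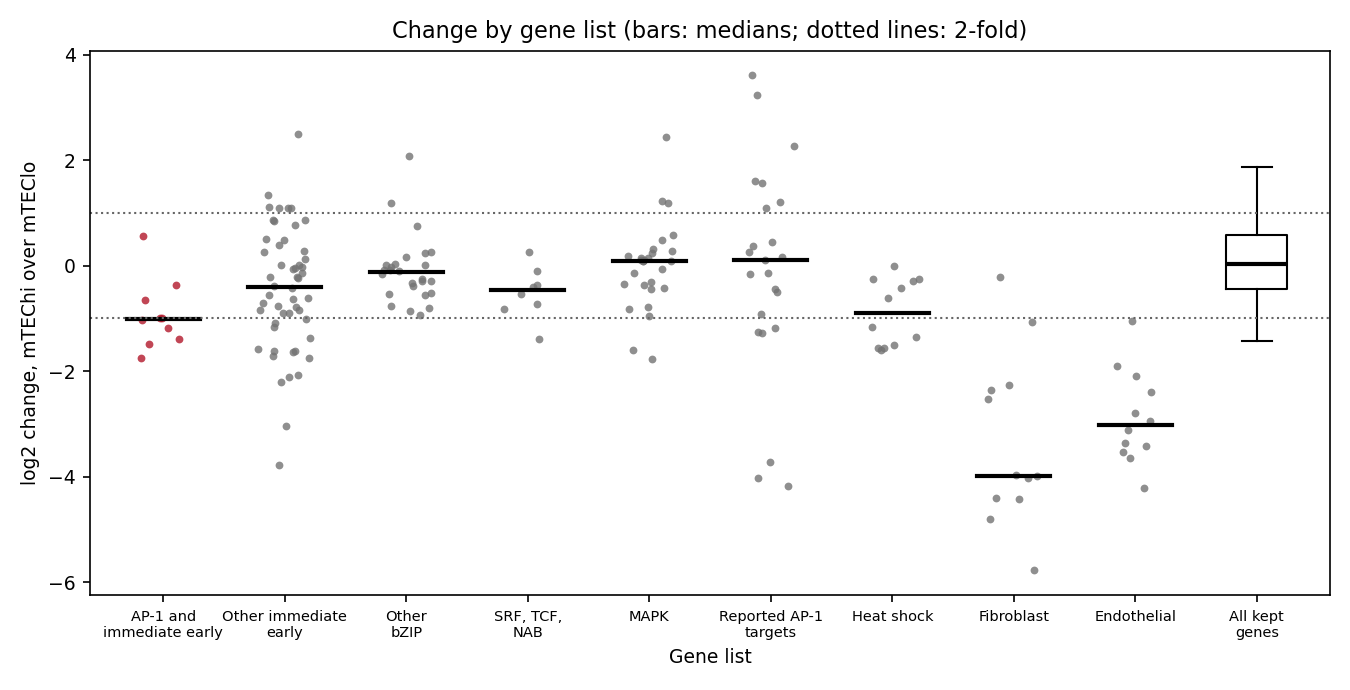
Change of every kept gene (log2, mTEChi over mTEClo) by list, with bars for list medians, dotted lines at 2-fold, and a box for all 15590 kept genes (quartiles, with whiskers at percentiles 5 and 95). The AP-1 and immediate early genes (median -1.01) lie near the heat shock list (-0.89), below the MAP kinase list (0.09) and above the fibroblast (-3.98) and endothelial (-3.03) lists. The mature and immature mTEC, macrophage and dendritic cell, B cell and thymocyte lists are not shown. Of these, the immature mTEC list also had a median near that of the AP-1 genes (-1.14).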

How the data were processed

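The authors deposited 1 RPKM value for each RefSeq transcript line and library. Per the submitters' processing notes, the build was mm9, and bedtools, Bowtie 1.0.0 and CASAVA were used, in roles that are not stated. The sources used here do not say how reads shared by isoforms, gene copies or antisense genes were counted, and the kit does not keep strand, per the labels' protocols. Lines were named through RefSeq (30212) and then GENCODE M21 (30396 in all, of 30794), and a gene's value is its line with the highest mean. Reads were recovered from steps of RPKM times GENCODE length. Among transcripts of 1 to 10 reads, 75.6% in the mTEChi and 65.9% in the mTEClo library lay within 0.1 of a whole read, so read numbers are approximate. Counting intervals are exact for the ratio of such reads.

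No test was made, with 1 library a group. The procedure was tested on simulated counts with planted changes, which held no difference in read type and no spread between animals. All 10 genes are named, the serum response factor list and 6 bZIP partners in full, and of each other list at most the 3 largest changes in each direction. Outside this rule, markers that check the labels or are listed at 0, and Pdgfrb, Lck, Tcf7 and Lyz2, were chosen after their values were seen. The members and lists were chosen with earlier results of these data known. Among the members of the 14 lists, Atf7, Cd68, Ighm and Igkc were not analysed here. GC content and exon length were known for 98.9% of genes kept. Scripts ran in Python 3.11.15 with scipy 1.17.1, pandas 2.3.3, numpy 2.4.6 and, for figures, matplotlib 3.10.9.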

Additional observations from a re-analysis of the deposited data

How the results depend on the processing

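Alternatives changed the pseudocount (0.1 or 5 RPKM), the scaling, the filter, the choice of transcript line, or centred changes within 20 bins of GC content, exon length or transcript length. Centring by level and scaling to the upper quartile of genes above 0 in each library were chosen after seeing the data. All 10 genes but Fosl2 kept their direction in every setting. The median of the 10 genes (-1.01) was -0.74 without scaling, -0.87 with the same RPKM sum, -0.91 with GC, -0.93 with exon length and -0.97 with level centring, and -0.58 with the upper quartile of genes above 0. The count 2-fold lower (5) was 3 without scaling and 2 with that upper quartile. It ran from 2 to 7 over all settings, with 7 under transcript length centring. With that upper quartile, Fosl2 was 0.056. The list of other immediate early genes then had a median of 0.016, beside 0.37 for all genes. Of all called genes, 63.3% were higher in the mTEChi library, against 74.9% without scaling and 80.4% with that upper quartile. Other bZIP genes had a median of 0.11 unscaled, 0.00049 at equal sums and 0.24 under that upper quartile. All genes had 0.25, 0.15 and 0.37 in these settings. Reported AP-1 targets had -0.15 with a mean of 5 RPKM or more and -0.095 with level centring, and thymocyte markers -0.44 and -0.18. Immature mTEC markers had a median of -0.87 where no scaling was applied, -0.99 for equal sums and -0.71 for that upper quartile. With a pseudocount of 5 RPKM, macrophage and dendritic cell markers had 0.78 and B cell markers 0.47. A scaling moves every gene by about the same amount, by construction. A larger pseudocount shrinks the changes of low genes, and a higher filter drops such genes from a list, also by construction. The cause of the remaining shifts was not tested. No paired analysis was possible because each group has 1 library.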
